A study of Mus musculus with 6 samples.

Results

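Tight junction proteins other than claudins were followed through 9 genes: Ocln, Marveld2 and Marveld3, Tjp1, Tjp3 and Cgn, and F11r, Pard3 and Crb3. They were taken by name, as the Ensembl identifiers that GENCODE assigns to these mouse genes, and make up 9 of the 55416 genes in the count table. RNA-seq was performed on EpiLCs, the formative pluripotent cells that mESCs give rise to, and the question was what the loss of the transcription factor Oct6 (gene Pou3f1) does to their transcriptome. WT EpiLCs came from the parental mESC line 46C. KO EpiLCs came from a clone of 46C in which CRISPR/Cas9 left a homozygous insertion of a single nucleotide in Oct6, so that genotype and clone cannot be told apart. Every culture was kept for 48 h on fibronectin in N2B27 medium with 1% KSR (a serum replacement), bFGF and Activin A, for which the sample labels state 12 ng/ml and 20 ng/ml and the series text states the same figures in µg/ml. There were 3 paired biological replicates of each genotype, 6 libraries in all, with count totals, in the order of the replicates, of 13202494, 10995505 and 14680930 for WT and 12468807, 13332588 and 13213843 for KO EpiLCs.

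Tight junctions close the space between neighbouring epithelial cells near their apical side. Proteins that cross the membrane several times and adhesion molecules of the immunoglobulin family meet across that space, scaffold proteins of the cytoplasmic plaque tie them to actin, and polarity complexes set where the junction forms. The epiblast is itself an epithelium, and pluripotent cells in culture express many of these genes.

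Values are given as CPM with TMM-normalized library sizes, in the order of replicates 1 to 3. Fold changes, their standard errors (SE) and p-values were computed with the quasi-likelihood test of edgeR and adjusted by the Benjamini-Hochberg method over all genes tested. A gene was called where the adjusted p was below 0.1. A count of 3 in a library corresponds to between 0.203 and 0.274 CPM. Pou3f1 stood at 160.9, 142.6 and 122.1 CPM in WT libraries and at 127, 140.8 and 128.5 CPM in KO libraries. The groups overlapped, with a log2 fold change of −0.10 (SE 0.11, adjusted p = 0.574 in edgeR). Since a small insertion leaves the rest of the transcript to be counted, these levels do not check the genotype labels.

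All 9 genes passed the filter on low counts. At the threshold of 0.1, edgeR called 4 of the 9 genes lower in KO EpiLCs (Marveld3, Tjp3, Crb3 and Ocln), against 12.5% of the 15746 genes tested that were called lower. None of the 9 was called higher, against 11.8% of all genes tested, and none was higher at an unadjusted p below 0.05 or with DESeq2. Taken in either direction, 24.3% of all genes tested were called. The 9 genes were chosen with earlier results of these data known, so their share may owe something to that choice. Among the 4, Marveld3 and Tjp3 (2 of the 9) also had a log2 fold change of 1 or more in size, against 6.21% of all genes tested. The median log2 fold change was −0.19 over the 9 genes and 0.00 over all genes tested. In bulk RNA, fewer cells that express a gene and less of its RNA per cell cannot be told apart.

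**Figure D1:**
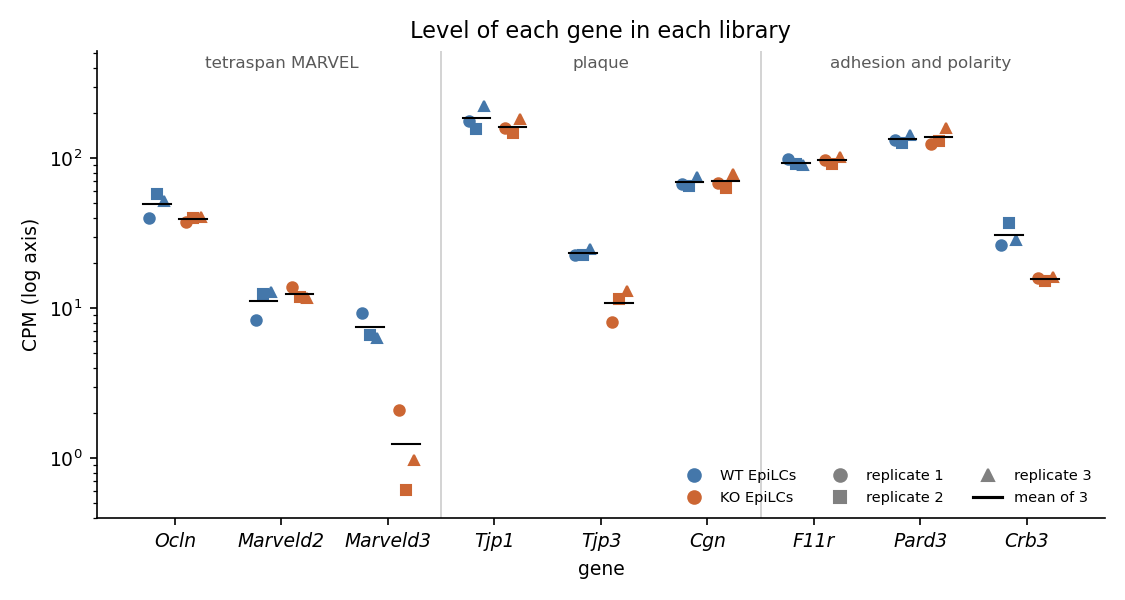
CPM of the 9 genes on a log axis, with a point for each library (blue for WT EpiLCs, orange for KO EpiLCs, and a symbol for each replicate) and a black line at the mean of 3. The KO libraries lie below all WT libraries for Marveld3 (0.617 to 2.11 CPM against 6.36 to 9.33), Tjp3 and Crb3, and overlap them for the other 6 genes.

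The tetraspan MARVEL proteins are occludin (Ocln), tricellulin (Marveld2), which gathers where 3 cells meet, and Marveld3. Marveld3 (ENSMUSG00000001672.15, chr8:110674542-110688845, minus strand, GRCm39) was found at 9.33, 6.66 and 6.36 CPM in WT libraries, against 2.11, 0.617 and 0.978 CPM in KO libraries. Every KO library lay below every WT library, and KO replicate 1 was the highest of its group. Its mean fell from 7.45 ± 1.64 to 1.23 ± 0.777 CPM (SD, n = 3), with a log2 fold change of −2.60, SE 0.34 and adjusted p = 2.5e-05 in edgeR. Only 26, 8 and 13 counts stand behind the KO values, and 125, 73 and 94 behind the WT values. Within the pairs of replicates the log2 ratio was −2.15, −3.43 and −2.70. Marveld3 was thereby at 16.5% of its WT level by the fitted fold change, with a 95% interval of the log2 fold change from −3.30 to −1.90. Without KO replicate 1 the log2 fold change was −3.21.

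Ocln (ENSMUSG00000021638.13, chr13:100630334-100689535, minus strand) was counted at 39.7, 57.7 and 51.9 CPM in WT EpiLCs and at 37.7, 39.6 and 40.5 CPM in KO EpiLCs. The KO libraries were close together, whereas WT replicate 1 lay within the KO range and the other WT replicates above it. Means of 49.8 ± 9.17 CPM and 39.3 ± 1.47 CPM (SD, n = 3) gave a log2 fold change of −0.34 (SE 0.13, adjusted p = 0.0737 in edgeR). This call was lost when WT replicate 2 or 3 or any KO replicate was left out, with edgeR adjusted p-values of 0.302, 0.165, 0.193, 0.144 and 0.131, and kept without WT replicate 1 (0.00773). Marveld2 (ENSMUSG00000021636.16), which lies next to Ocln on chromosome 13 (100732464 to 100753489, same strand), showed 8.28, 12.4 and 12.8 CPM in WT and 13.9, 11.9 and 11.7 CPM in KO replicates. WT replicate 1 was the low value, and the groups overlapped. Its log2 fold change was 0.16 with a 95% interval from −0.22 to 0.54 (adjusted p = 0.606 in edgeR), and −0.02 without WT replicate 1.

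Promoters were read from RefSeq, as the 250 bases before and 50 bases after a transcription start, to show the sequence around the starts of Ocln, Tjp3 and Crb3, which were lower, and of Cgn. The RefSeq promoter table used here, for GRCm38.p6, held 13 promoters of 8 of the 9 genes, all but Marveld3. Each sequence matched GRCm39 at exactly 1 place on its chromosome, and the positions given are those of GRCm39. The letters searched on both strands were ATGCAAAT (the octamer of POU factors, the family of Oct6), AACNGGTT (Grainyhead-like factors, which drive epithelial genes) and CAGGTG (the E-box of Snail and Zeb factors, which repress epithelial genes). None of the 13 promoters held the octamer, which 1.74% of all 32851 promoters held. AACNGGTT was in 1 of the 13 and in 2.09% of all, and CAGGTG in 10 of the 13 (6 of 8 genes) and in 20.2% of all promoters (22.6% of genes). The 6 genes were Ocln, Tjp3 and Crb3, which were called lower, and Marveld2, F11r and Pard3, which were not called. Tjp1 and Cgn, not called either, held no CAGGTG. Whether the letters go with the lower genes was not tested. Several promoters of the same gene overlap, so the 13 are not independent. A match describes the letters only, and binding was not measured here.

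The downstream promoter of Ocln (chr13:100688957-100689256, minus strand) lies in exons of Ocln and holds CAGGTG at 213 and 68 bases before the start. Its upstream promoter (chr13:100689177-100689476), not printed, holds 1 match, at 7 bases after the start. The canonical transcript of Ocln in GENCODE starts at base 100689229. Capitals mark the matches:
Ocln: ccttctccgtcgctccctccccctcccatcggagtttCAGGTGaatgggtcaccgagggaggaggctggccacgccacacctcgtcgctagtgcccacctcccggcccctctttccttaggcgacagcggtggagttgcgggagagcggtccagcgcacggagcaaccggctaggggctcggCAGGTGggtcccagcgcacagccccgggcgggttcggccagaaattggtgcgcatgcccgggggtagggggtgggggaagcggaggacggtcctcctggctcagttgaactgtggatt

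The plaque proteins are the scaffolds ZO-1 (Tjp1) and ZO-3 (Tjp3), which bind the tails of junctional membrane proteins, and cingulin (Cgn), which links the plaque to actomyosin and microtubules. Tjp3 (ENSMUSG00000034917.9, chr10:81109034-81127417, minus strand) gave 22.5, 22.6 and 24.7 CPM in WT libraries and only 8.10, 11.5 and 12.9 CPM in KO libraries. All KO libraries were lower than all WT libraries, and KO replicate 1 was the lowest. Between 23.3 ± 1.24 CPM and 10.8 ± 2.48 CPM (SD, n = 3) the log2 fold change was −1.10 (SE 0.17, adjusted p = 1.1e-04 in edgeR), or 46.7% of the WT level. It was −0.93 without KO replicate 1, which left Marveld3 as the single gene past both thresholds.

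Tjp1 (ENSMUSG00000030516.15, chromosome 7, 64945898 to 65177529, minus strand) showed 176, 156 and 224 CPM in WT and 159.5, 146.4 and 181 CPM in KO replicates. Within each pair the KO library was the lower, but the groups overlapped and WT replicate 3 was the highest of all. The log2 fold change was −0.19 (SE 0.12, adjusted p = 0.317 in edgeR), and −0.31 without WT replicate 2 (adjusted p = 0.0891 in edgeR), the only omission of a library that brought a call. Cgn (ENSMUSG00000068876.17, chromosome 3, 94667376 to 94695136, minus strand) was measured at 67.2, 65.7 and 74.4 CPM in WT and 68.2, 63.7 and 77.8 CPM in KO replicates. Replicate 3 was the highest of each genotype, and the groups overlapped throughout. Its log2 fold change of 0.02 had a 95% interval from −0.21 to 0.24 (adjusted p = 0.943 in edgeR), and its sign turned without WT replicate 1 or 2 or KO replicate 3 and with library totals alone.

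The upstream and the downstream promoter of Tjp3 (chr10:81127366-81127665 and chr10:81127052-81127351, minus strand) each hold the E-box letters a single time, at 108 and 17 bases before their starts. The promoter of Cgn (chr3:94693744-94694043, minus strand), whose level did not pass the test, is the one with the Grainyhead-like letters, at 29 bases before the start. Here too capitals mark the matches, and CACCTG is CAGGTG on the other strand:
Tjp3 upstream: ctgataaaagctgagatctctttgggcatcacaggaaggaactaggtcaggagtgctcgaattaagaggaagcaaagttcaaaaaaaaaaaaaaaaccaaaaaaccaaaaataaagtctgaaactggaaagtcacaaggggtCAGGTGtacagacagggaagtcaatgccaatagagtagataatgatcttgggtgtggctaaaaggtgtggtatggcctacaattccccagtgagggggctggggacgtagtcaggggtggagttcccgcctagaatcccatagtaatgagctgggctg
Tjp3 downstream: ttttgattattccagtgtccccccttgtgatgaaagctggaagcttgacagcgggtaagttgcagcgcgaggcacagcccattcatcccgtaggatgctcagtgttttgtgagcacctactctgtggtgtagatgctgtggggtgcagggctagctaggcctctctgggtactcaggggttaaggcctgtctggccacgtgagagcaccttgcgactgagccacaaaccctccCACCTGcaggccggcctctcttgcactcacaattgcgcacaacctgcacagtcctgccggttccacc
Cgn: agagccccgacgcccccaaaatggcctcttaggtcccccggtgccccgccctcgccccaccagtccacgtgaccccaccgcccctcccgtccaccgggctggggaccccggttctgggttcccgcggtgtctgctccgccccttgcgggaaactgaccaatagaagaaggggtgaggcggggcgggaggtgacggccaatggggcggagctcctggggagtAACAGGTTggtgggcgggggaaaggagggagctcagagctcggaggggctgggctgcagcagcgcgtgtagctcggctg

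Among the adhesion and polarity proteins, F11r encodes the immunoglobulin-like adhesion molecule JAM-A, Pard3 the scaffold of the PAR complex that JAM-A recruits, and Crb3 the small apical Crumbs protein. Crb3 (ENSMUSG00000044279.16, chr17:57366091-57375124, plus strand) reached 26.5, 36.9 and 28.7 CPM in WT libraries, against 15.96, 15.2 and 16.02 CPM in KO libraries. The KO libraries were nearly equal and all below the WT libraries, of which replicate 2 was the highest. Means of 30.7 ± 5.47 CPM and 15.7 ± 0.459 CPM (SD, n = 3) gave a log2 fold change of −0.96 (SE 0.14, adjusted p = 1.0e-04 in edgeR), or 51.4% of the WT level. It went past −1 without WT replicate 1 (−1.06) or WT replicate 3 (−1.01), which brought the genes past both thresholds to 3.

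Crb3 shares 1454 bases of exon with Dennd1c on the opposite strand, and the sources used here do not state whether counting used the strand. Dennd1c had 24, 11 and 10 counts in WT and 1, 8 and 0 counts in KO replicates, next to 355, 404 and 424 counts on Crb3 in WT and 197, 197 and 213 in KO replicates. What part the shared bases have in the values of Crb3 was not tested. Shorter overlaps with genes on the opposite strand were those of Tjp3 with Apba3 (47 bases), Ocln (167 bases), F11r (178 bases) and Cgn (305 bases).

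F11r (ENSMUSG00000038235.5, chromosome 1, 171265092 to 171292958, plus strand) showed 99.3, 91.3 and 89.8 CPM in WT and 97.5, 91.0 and 101 CPM in KO replicates. Pard3 (ENSMUSG00000025812.19, chromosome 8, 127790392 to 128338767, plus strand) had 132, 127 and 142 CPM in WT and 124, 129.8 and 159 CPM in KO replicates. For both genes the groups overlapped, and KO replicate 3 was the highest library. The log2 fold changes were 0.05 for F11r (95% interval −0.16 to 0.25, adjusted p = 0.80 in edgeR) and 0.04 for Pard3 (−0.18 to 0.27, adjusted p = 0.826 in edgeR). Leaving out KO replicate 3 turned the sign for Pard3 (−0.07).

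The promoters of Crb3 are shown because they hold the most E-box letters of the 13. In GENCODE the canonical transcript of Crb3 starts at base 57367736, outside both promoters. The first lies in exon sequence of Crb3 (chr17:57368951-57369250, plus strand) and holds 4 matches, at 118, 63 and 7 bases before the start and 25 bases after it, and the second is the same sequence moved by 30 bases:
Crb3: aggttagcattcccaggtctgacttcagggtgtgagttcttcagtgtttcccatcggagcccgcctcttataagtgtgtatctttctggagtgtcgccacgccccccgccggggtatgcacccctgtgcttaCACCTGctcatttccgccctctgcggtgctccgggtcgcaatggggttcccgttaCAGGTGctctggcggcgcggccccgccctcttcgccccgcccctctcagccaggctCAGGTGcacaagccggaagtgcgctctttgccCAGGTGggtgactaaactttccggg

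**Figure D2:**
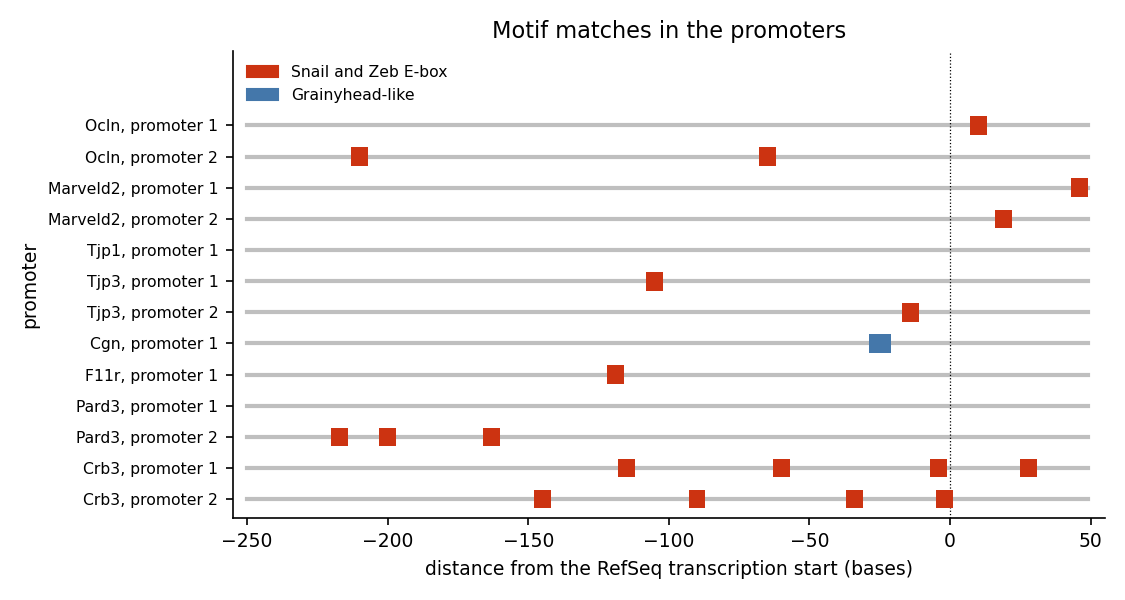
Positions of motif matches in the 13 RefSeq promoters, in bases from the transcription start (dotted line), with red for the E-box letters and blue for the Grainyhead-like letters. Crb3 has 4 E-box matches in each of its overlapping promoters, the second promoter of Pard3 has 3, and that of Tjp1 and the first of Pard3 have none of the motifs.

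Over the 9 genes, 3 had groups that did not overlap (Marveld3, Tjp3 and Crb3, all lower in KO EpiLCs), a separation that 33.7% of all genes tested showed in either direction. The spread among replicates was uneven. The coefficient of variation in WT EpiLCs ran from 5.33% (Tjp3) to 22.4% (Marveld2), and in KO EpiLCs from 2.92% (Crb3) to 63.0% (Marveld3). By the size of the fold change Marveld3 was 34th of the 15746 genes tested, Tjp3 839th and Crb3 1151st. By p-value they were 175th, 351st and 336th.

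**Figure D3:**
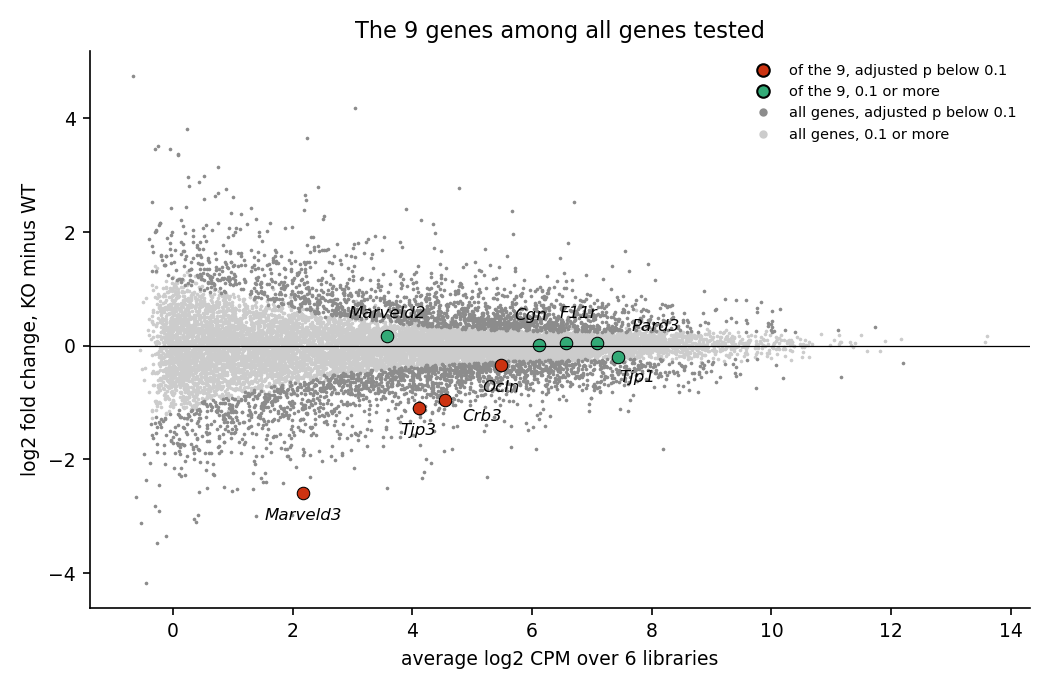
Log2 fold change (KO minus WT) against average log2 CPM for all 15746 genes tested, in dark grey where called, with the 9 genes in red where called and in green where not. Marveld3, at −2.60, lies far below most genes of its abundance, and Tjp3 (−1.10) and Crb3 (−0.96) lie within the called genes.

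Levels of different genes were compared as CPM per kb of exon. In WT EpiLCs F11r was highest with 27.0 ± 1.48 CPM per kb (SD, n = 3), followed by Tjp1 with 23.4 ± 4.44, and these neighbours overlapped. Cgn had 11.1 ± 0.747 CPM per kb and Pard3 8.84 ± 0.503, each apart from its neighbours in that order. Ocln (5.30 ± 0.977), Crb3 (5.01 ± 0.894) and Tjp3 (4.29 ± 0.228) overlapped as neighbours. Marveld2 (3.29 ± 0.736) and Marveld3 (2.26 ± 0.496) closed the order and overlapped as well. In KO EpiLCs the first 5 places were held by the same genes in the same order, down to Ocln with 4.19 ± 0.156 CPM per kb. Behind them came Marveld2 (3.68 ± 0.349), Crb3 (2.57 ± 0.0750), Tjp3 (2.00 ± 0.457) and, well apart, Marveld3 (0.374 ± 0.236). Among these KO values the neighbours Cgn and Pard3 overlapped, as did Ocln and Marveld2. Per kb of the canonical transcript alone, Pard3 took place 3 (21.6 ± 1.23 CPM per kb in WT EpiLCs), since its annotated exons add up to 15113 bases and its canonical transcript to 6184 bases. By that length Crb3 (12.6 ± 2.25 CPM per kb) and Tjp3 (7.64 ± 0.407) also stood before Ocln (7.34 ± 1.35) in WT EpiLCs, so the order of these 3 depends on the length used.

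Within the MARVEL family, Marveld3 made up 29.8%, 17.1% and 17.2% of the summed CPM per kb in WT libraries and 7.31%, 2.37% and 3.67% in KO libraries. Marveld2 held 30.1% ± 4.01 (SD, n = 3) in WT and 44.6% ± 1.98 in KO EpiLCs, and Ocln 48.6% ± 3.77 and 50.9% ± 4.33. A share of Marveld2 that is larger in KO EpiLCs thus goes with a level of Marveld2 that overlapped between the groups.

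**Figure D4:**
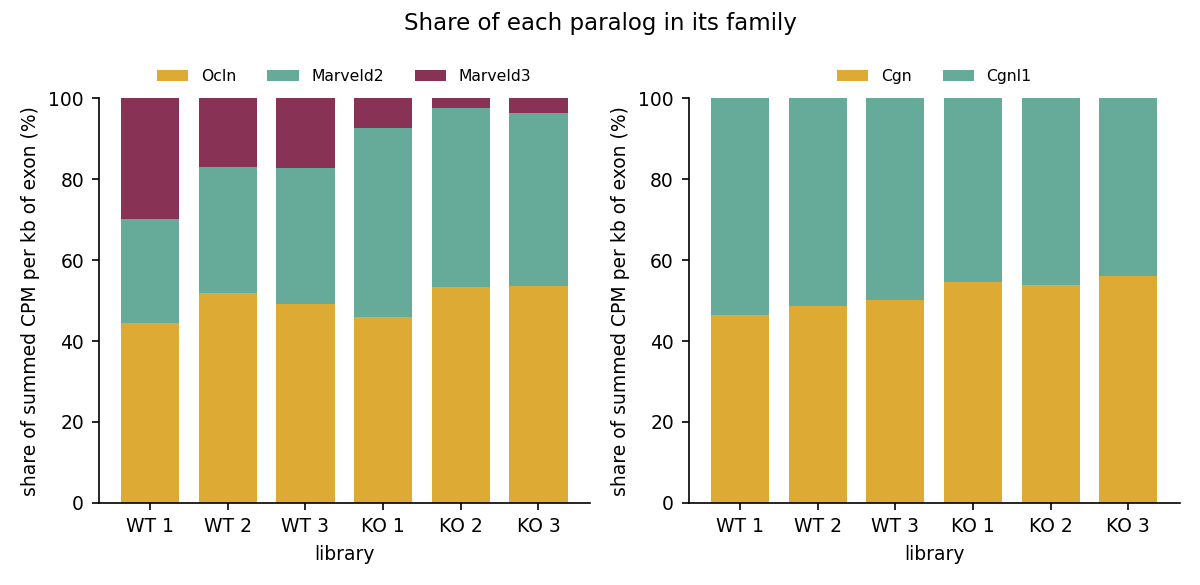
Share of each paralog in the summed CPM per kb of exon of its family, in percent, with a bar for each library (WT 1 to 3 and KO 1 to 3). Marveld3 takes 17.1% to 29.8% of its family in WT and 2.37% to 7.31% in KO libraries, and Cgn 46.5% to 50.2% and 53.9% to 56.0% of its own.

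In the other families the share of a gene and its level did not always go together. Cgn made up 48.5% ± 1.85 (SD, n = 3) of the summed CPM per kb of Cgn and its paralog Cgnl1 in WT and 54.8% ± 1.12 in KO EpiLCs, and it was Cgnl1 that was lower. Crb3 remained the main Crumbs gene, with 92.2% ± 2.31 and 88.7% ± 0.541 of the summed CPM per kb of Crb1, Crb2 and Crb3. F11r took 89.7% ± 1.11 and 92.6% ± 0.813 of the JAM family, and Pard3 99.04% ± 0.435 and 98.91% ± 0.526 of Pard3 and Pard3b.

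The genes whose log2 CPM profile over the 6 libraries was nearest to that of Marveld3, among 15267 genes searched, were Eif4g3 (a translation initiation factor, root mean square difference 0.275) and the long non-coding RNA gene Gm45752 (0.303). Eif4g3 had 78.5, 51.9 and 58.8 CPM in WT and 17.3, 9.41 and 11.4 CPM in KO replicates, so that replicate 1 was the highest of each genotype, as for Marveld3. Nearest to Tjp3 were Rfxap (0.0648), Phlda1 (0.0837) and Rhox13 (0.0942). Rfxap, a factor for the promoters of MHC class II genes, stood at 16.4 ± 1.11 and 7.46 ± 1.30 CPM (SD, n = 3). The measure was taken over all 6 libraries, so the difference between the groups and the order of the replicates both enter it.

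The other tight junction genes came from lists of plaque, adhesion, tricellular, polarity and signalling genes. Of 46 such genes 42 passed the filter, and edgeR called 11 lower (26.2% of those tested) and 3 higher (7.14%) in KO EpiLCs, next to 12.5% and 11.8% of all genes tested. Without WT replicate 3 the counts were 10 lower and 5 higher. They were 8 and 3 without KO replicate 1, and again without KO replicate 2, and 13 and 4 with a replicate block. The median log2 fold change of the 42 genes was −0.05. These lists too were chosen with earlier results of these data known, which may enter the shares. The log2 fold change of 1 of those called, Amot, was 1 or more in size.

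In the cytoplasmic plaque list 5 of 13 genes were lower (38.5%) and 1 was higher (7.69%), next to 12.5% and 11.8% of all genes tested. Magi1, a scaffold with several PDZ domains, stood at 64.5 ± 4.71 and 32.9 ± 2.85 CPM (SD, n = 3), for a log2 fold change of −0.97 (adjusted p = 7.6e-06 in edgeR). Sympk (−0.41), Amotl2 (−0.37), Cgnl1 (−0.35) and Amotl1 (−0.32) were lower as well. Amot, which encodes angiomotin, a partner of the Patj complex, stood at 17.8, 11.3 and 18.7 CPM in WT and 67.2, 21.4 and 42.1 CPM in KO replicates. The KO libraries were all above the WT libraries but spread widely, with a log2 fold change of 1.44 (SE 0.27, adjusted p = 8.6e-04 in edgeR) that ran from 0.98 to 1.77 among the alternatives. The calls of Amotl1 (without WT replicate 1 or 3 or KO replicate 1 or 2, adjusted p up to 0.327 in edgeR), Amotl2 (without WT replicate 3 or KO replicate 1 or 2, up to 0.354) and Sympk (without KO replicate 1, 0.102) were lost when those libraries were left out.

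Of the immunoglobulin-like adhesion genes, 5 of 6 were tested. Among these 1 was lower (20%) and 1 higher (20%), next to 12.5% and 11.8% of all genes tested. Jam3 was lower (18.97 ± 3.03 CPM against 13.1 ± 1.86 CPM, SD, n = 3, log2 fold change −0.54) and Cxadr, the Coxsackie and adenovirus receptor, higher (69.8 ± 10.8 CPM against 98.4 ± 7.02 CPM, 0.49). The call of Jam3 was lost without WT replicate 1 or KO replicate 2, with an adjusted p of up to 0.12 in edgeR. Of the 3 tricellular genes Lsr, which brings tricellulin to the corners of cells, was lower in every KO library (69.3 ± 4.88 CPM against 48.9 ± 1.24 CPM, log2 fold change −0.50, adjusted p = 0.00177 in edgeR). This was 1 of the 3 tested (33.3%), and none was called higher.

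Among 17 genes of the polarity complexes 14 were tested, 3 of them lower (21.4%) and 1 higher (7.14%), next to 12.5% and 11.8% of all genes tested. Pard6b, the PAR-6 protein that binds Pard3 and atypical protein kinase C, fell from 40.2, 41.7 and 44.4 CPM in WT replicates to 22.2, 25.8 and 23.9 CPM in KO replicates (log2 fold change −0.81, adjusted p = 7.3e-05 in edgeR). Its paralog Pard6g (−0.46) and Patj (−0.45), the scaffold of the Crumbs complex, were lower, the former not without WT replicate 2 (adjusted p = 0.107 in edgeR, the highest among its alternatives). Dlg1 of the Scribble complex was higher (140 ± 10.6 CPM against 194 ± 10.5 CPM, SD, n = 3, log2 fold change 0.47). Of 7 signalling partners Arhgef2, an exchange factor for RhoA, was lower (70.9 ± 2.73 CPM against 49.6 ± 8.01 CPM, log2 fold change −0.51, adjusted p = 0.00408 in edgeR). This was 1 of the 7 tested (14.3%), and none was called higher.

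**Figure D5:**
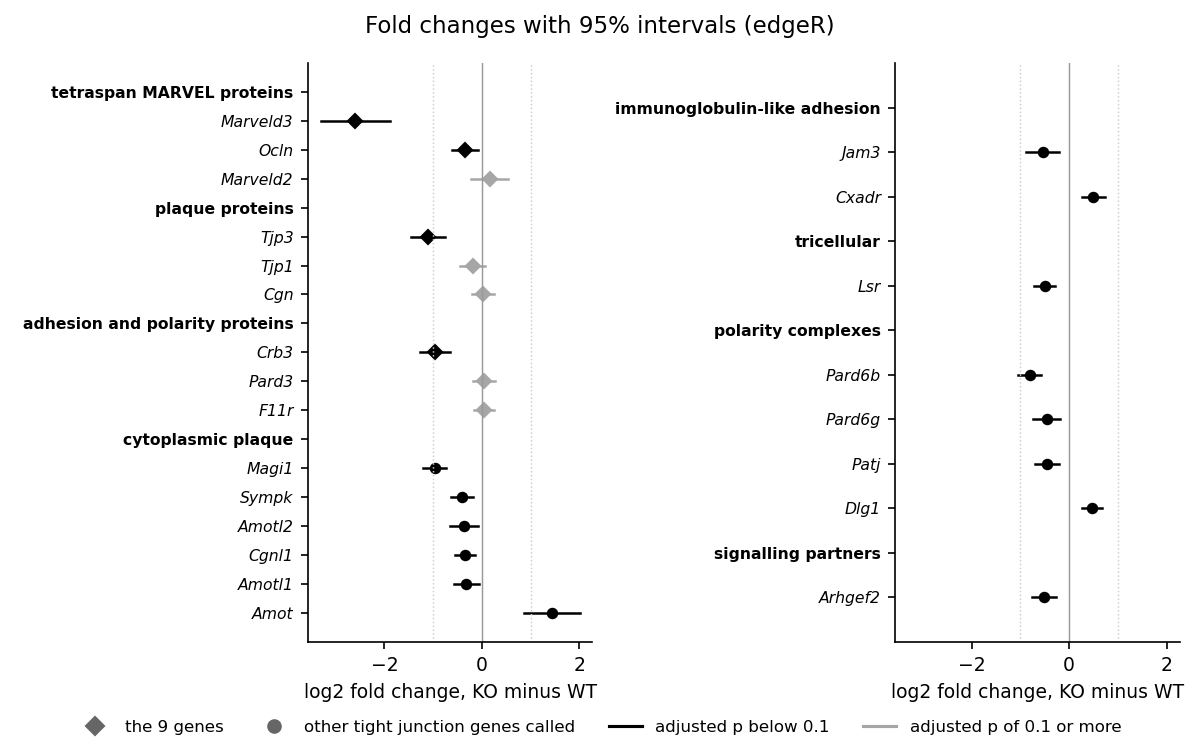
Log2 fold changes (KO minus WT) with 95% intervals for the 9 genes (diamonds) and the 14 other tight junction genes called (circles), grouped by role, in black where the adjusted p in edgeR was below 0.1. Values run from −2.60 (Marveld3) to 1.44 (Amot), and dotted lines mark a log2 fold change of 1 in each direction.

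Chromosomes differed, in that the median log2 fold change of the genes tested was 0.55 on chromosome 16 and −0.40 on chromosome 6. None of the 9 genes lies on either, and the medians of their chromosomes ran from −0.04 (chromosome 8) to 0.06 (chromosome 13). Of the 3 other tight junction genes that were higher, Cxadr and Dlg1 lie on chromosome 16, where they stood 0.06 and 0.08 below its median. Magi1 lies on chromosome 6, 0.57 below its median. Among the claudins, Cldn5 (1.98) and Cldn1 (1.39), both higher, lie on chromosome 16 and stood 1.43 and 0.84 above its median. What part the shifts of these chromosomes have in the values of these genes was not tested.

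Regulators and markers of epithelial identity were read as context. Of 15 genes 13 were tested, 3 higher (23.1%) and 1 lower (7.69%), next to 11.8% and 12.5% of all genes tested. The Grainyhead-like factor Grhl2 had 76.3, 79.9 and 80.7 CPM in WT and 112.5, 121.6 and 127.5 CPM in KO replicates, a log2 fold change of 0.61 (adjusted p = 1.7e-04 in edgeR). Grhl3 (8.07 ± 0.772 CPM against 14.4 ± 4.20 CPM, SD, n = 3) and the mesenchymal factor Twist1 (3.35 ± 0.543 CPM against 5.73 ± 0.687 CPM) were higher too, the latter not without KO replicate 3 (adjusted p = 0.105 in edgeR, the highest among its alternatives). Cdh1, which encodes E-cadherin, was lower, at 526 ± 4.08 CPM against 403 ± 15.9 CPM (log2 fold change −0.38, adjusted p = 0.00509 in edgeR).

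The E-box factors Snai1 (0.404 ± 0.292 CPM and 0.339 ± 0.0985 CPM, SD, n = 3) and Snai2 (0.254 ± 0.0961 CPM and 0.340 ± 0.132 CPM) were too low to be tested. Zeb1 (3.24 ± 0.996 CPM and 4.86 ± 0.833 CPM) and Zeb2 (0.673 ± 0.775 CPM and 1.61 ± 0.476 CPM) did not pass the test, with log2 fold changes of 0.57 (adjusted p = 0.169 in edgeR) and 1.22 (adjusted p = 0.149 in edgeR). Within each pair both genes were higher in the KO library. For Zeb2, WT replicate 1 (1.57 CPM) lay within the KO range of 1.16 to 2.11 CPM. WT replicates 2 and 3 of Zeb2 were far lower, at 0.18 and 0.27 CPM (2 and 4 counts). The log2 ratio of Zeb2 within the pairs was 0.43, 2.66 and 2.55, so its size depends on WT replicate 1. Of 26 claudin genes, the other main membrane proteins of tight junctions, 10 were tested, with 4 lower (Cldn4, Cldn6, Cldn7 and Cldn9, log2 fold changes from −0.69 to −1.79) and 3 higher. These are 40% and 30% of the claudins tested, next to 12.5% and 11.8% of all genes tested. The 3 higher were Cldn5 (1.98), Cldn2 (1.55) and Cldn1 (1.39), and the calls of Cldn2 (without KO replicate 3, adjusted p = 0.143 in edgeR) and Cldn1 (without KO replicate 1, adjusted p = 0.176 in edgeR) were lost without the library named, each the highest adjusted p among its alternatives.

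Markers of EpiLCs and of other cell types were summed in each library, 8 genes to a list. The calls in these short lists stand next to 12.5% of all genes tested called lower and 11.8% called higher. The pluripotent and formative list came to 3392, 3489 and 3130 CPM in WT and 3177, 3163 and 3033 CPM in KO replicates, with Dnmt3b the most abundant. Of its 8 genes, all tested, edgeR called 3 higher and none lower in KO EpiLCs, namely Otx2 (83.4 ± 22.2 CPM against 157 ± 13.2 CPM, SD, n = 3, log2 fold change 0.92), Fgf5 (0.65) and Sox2 (0.42). The call of Sox2 was lost without WT replicate 1 or KO replicate 3, with an adjusted p of up to 0.206 in edgeR.

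Trophoblast, an epithelium with tight junctions of its own, had markers that came to 25.1, 23.4 and 22.2 CPM in WT and 21.8, 18.6 and 24.5 CPM in KO replicates. These sums overlapped, but of the 4 genes tested Eomes, the most abundant over all libraries though not in WT EpiLCs, was higher (log2 fold change 0.87) and Krt7 (−1.01) and Tead4 (−0.74) were lower, the last not without KO replicate 2 (adjusted p = 0.113 in edgeR, the highest among its alternatives). Tead4 lies on chromosome 6 and stood 0.34 below its median. The other 4 of the 8 were below 1 CPM in every library. Primitive endoderm markers, with Lama1 the most abundant, summed to 31.9, 20.9 and 31.7 CPM in WT and 43.7, 24.9 and 55.6 CPM in KO replicates. Of 5 genes tested Gata6 (1.35) and Pdgfra (0.94) were higher. The call of Gata6 was lost without KO replicate 3 (adjusted p = 0.113 in edgeR), and that of Pdgfra (adjusted p = 0.0991 in edgeR) with DESeq2, with library totals alone and without WT replicate 2 or 3 or KO replicate 1 or 3, with adjusted p-values of up to 0.332.

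The sum of the neural markers was lower in every KO library, at 40.2, 40.5 and 32.0 CPM in WT and 23.2, 22.6 and 24.4 CPM in KO replicates. Most of it was Tubb3 (32.7 ± 4.45 CPM against 21.4 ± 1.60 CPM, SD, n = 3), which was lower, as was Sox1 (4.11, 3.56 and 3.31 CPM against 0.405, 2.24 and 0.527 CPM), the only other gene of the list that was tested. KO replicate 2 was the highest KO library for Sox1, whose log2 fold change was −1.78, and −2.94 without it. The other 6 genes were below 1 CPM in every library, with Olig2 at 0. Mesoderm and streak markers summed to 2.10 to 3.43 CPM in WT and 4.40 to 6.16 CPM in KO libraries, with 6 of the 8 genes below 1 CPM in every library. Of the 2 tested, Kdr, at 0.448, 0.274 and 0.474 CPM in WT and 3.65, 1.77 and 2.33 CPM in KO replicates, was higher (log2 fold change 2.64, adjusted p = 3.2e-04 in edgeR), whereas Fgf8, the most abundant over all libraries, was not called. Fibroblast or feeder markers, with Dcn the most abundant, summed to 22.0, 13.4 and 15.8 CPM in WT and 14.0, 9.26 and 9.70 CPM in KO replicates. Within each pair the sum was lower in the KO library, as was each of the 4 genes tested. Of these 4 only Thy1 (−1.22) was called lower. What part these markers have in the values of the tight junction genes was not tested.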

How the data were processed

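The deposited values are raw counts per gene. From stranded total RNA libraries, the authors used FastQC for quality, Fastp for trimming, and STAR in two-pass mode on GRCm39 for the counts. Strand use in counting is not given in the sources used here. Of 55416 identifiers, 54749 matched GENCODE release M39, from which names and exon lengths were taken. In R 4.3.3, edgeR 4.0.16 was used with TMM normalization, filterByExpr (minimum count 10), genotype as the only term and the quasi-likelihood test. Alternatives were DESeq2 1.42.0, RLE factors, library totals, other filters, an adjusted p below 0.05, a replicate block and the omission of each library. The series text calls the replicates paired, and deviations from the group means over 13878 genes had correlations of 0.215, 0.26 and 0.111 within pairs and of −0.193 to −0.0298 across them. Such deviations cancel out within a group, so the values across pairs follow in part from those within them. The shares of all genes called come from the fit with genotype alone, which does not use the pairs. Libraries of a group differed beyond sampling noise.

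Named genes were the 9 genes, Pou3f1, the genes of each list with an adjusted p below 0.1 (at most 8 per list), genes among the 3 nearest profiles (log2 CPM with 0.1 added, average log2 CPM of at least 0) of each of the 9 past both thresholds, and the most abundant marker and those at 0. Other genes named, such as the markers called, Snai1, Snai2, Zeb1, Zeb2, Dennd1c and Apba3, were named after their values were seen. The 9 genes and the lists were chosen with earlier results of these data known.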

Additional observations from a re-analysis of the deposited data

How the results depend on the processing

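The log2 fold changes of the 9 genes were computed 107 times under alternatives, and 95 of these kept their direction and their side of the threshold. Marveld3 (−3.21 to −2.28), Tjp3 (−1.24 to −0.93) and Crb3 (−1.06 to −0.82) were called lower under each alternative that could be fitted, which left out Marveld3 under at least 10 counts in every library, where 1 gene instead of 2 was past both thresholds. Leaving out each library gave 1 to 3 such genes, and log2 fold changes of −0.48 to −0.23 for Ocln, −0.017 to 0.28 for Marveld2, −0.31 to −0.034 for Tjp1, −0.067 to 0.080 for Cgn and −0.071 to 0.11 for Pard3. Cgn was at −0.0062 with library totals alone, which moved the median of all genes by −0.0244, and the cause of the other reversals was not tested. The paired fit with a replicate block called 4764 genes in place of 3833, the number of the 9 called staying at 4, with 2 past both thresholds, and 17 of the other tight junction genes in place of 14. It changed no call among the 9. With 3 libraries a group and 8 to 26 counts in KO EpiLCs, the size of the fall of Marveld3 is the least precise among those of the 9 that were called (standard error 0.34).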
